A study of Homo sapiens with 6 samples.

Results

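The 44 genes described here encode the sensors, signalling proteins and enzymes that detect and repair broken DNA. They were chosen by gene identity, by a rule that uses no measured value, though with earlier results of these data known. All 44 had a row among the 53719 rows of the deposited count table. Every one of the 44 passed the filter on low counts, which left 19721 rows for testing. RNA was measured in H9, an established human embryonic stem cell line grown in RSeT, a commercial medium for a naive-type state. One group of 3 libraries (a, b and c) came from cells transfected with an ALR gapmer, directed at RNA of the alpha satellite repeats of centromeres; their labels give the name Sense3 and the genotype ALR Knockdown. The other group of 3 libraries (a, b and c) came from cells given a control gapmer, and RNA was taken 48 h after transfection in both. A gapmer is an antisense oligonucleotide whose DNA core directs RNase H to cut the paired RNA. Values per library are given below in the order a, b, c. All libraries came from the same cell line, and nothing in the labels says whether the letters are separate cultures, so p-values measure the spread between these libraries, which may be technical.

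A double-strand break is sensed by the MRE11-RAD50-NBN complex, which activates the kinase ATM, while single-stranded DNA at stalled replication forks recruits the kinase ATR through its partner ATRIP. These kinases phosphorylate the histone H2AX beside the break and the effector kinases CHEK1 and CHEK2, which hold the cell cycle. The break is then either resected and copied from the sister chromatid by homologous recombination, or rejoined directly by the Ku heterodimer and DNA-PK in end joining. Pluripotent cells divide quickly with a short first gap phase and are known for high expression of recombination and replication-stress genes.

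None of these genes differed between the groups past the threshold, and the largest fitted difference, that of PRKDC, was 1.23-fold. With edgeR's quasi-likelihood test, 0 of the 44 genes passed an adjusted p (Benjamini-Hochberg over all genes tested) of 0.05, where 0.786% of all genes did (0.137% higher and 0.649% lower). The higher part of all calls was 17.4% with this scaling, 35.4% by library size alone and 28.7% by upper quartile, and 0 of the 44 genes passed under any of them. At an unadjusted p under 0.05 there were 3 higher genes (PRKDC, RNF8, H2AFX) and 3 lower genes (BARD1, FANCB, HUS1), 13.6% of the 44, against 14.3% of all genes (6.68% higher and 7.57% lower). This split moved with the scaling: 6 higher and 2 lower by library size alone, 3 and 2 by upper quartile, 2 and 3 by DESeq2 size factors. The median log2 fold change of all genes was 0.05, 0.04 and 0.01 in that order. DESeq2's Wald test called 1 gene, PRKDC (DESeq2 adjusted p = 0.0336), where it called 2.72% of all genes, and limma-voom called 0. With no low-count filter edgeR also called 1 of the 44, PRKDC, where 3.29% of all genes passed. It called 0 with a replicate block (1.99% of all genes) and 0 with the trend over gene span removed (1.46%). The 3 knockdown values lay wholly above the 3 control values in 4 genes and wholly below them in 4, together 18.2% of the 44, against 18.9% of all genes (9.55% higher and 9.37% lower).

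The fitted changes were small as well as uncalled. Their median was 0.007 on the log2 scale, against 0.02 over all genes tested, with 23 genes above 0 and 21 below. The median size of the change, regardless of sign, was 0.06 for these genes, 0.13 for all genes tested and 0.09 for the 9777 tested genes whose mean level lay in the same range. In 30 of the 44 genes the fitted change was under 0.1 in size, and in 42 it was under 0.2. The 95% interval of the change lay inside ±0.5 for all 44 genes and inside ±0.25 for 26. The widest bounds were -0.42 for XRCC4, or 0.747-fold, and 0.50 for PRKDC, or 1.41-fold. These intervals bound the difference between the groups of libraries and do not show that any gene was identical in both.

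**Figure D1:**
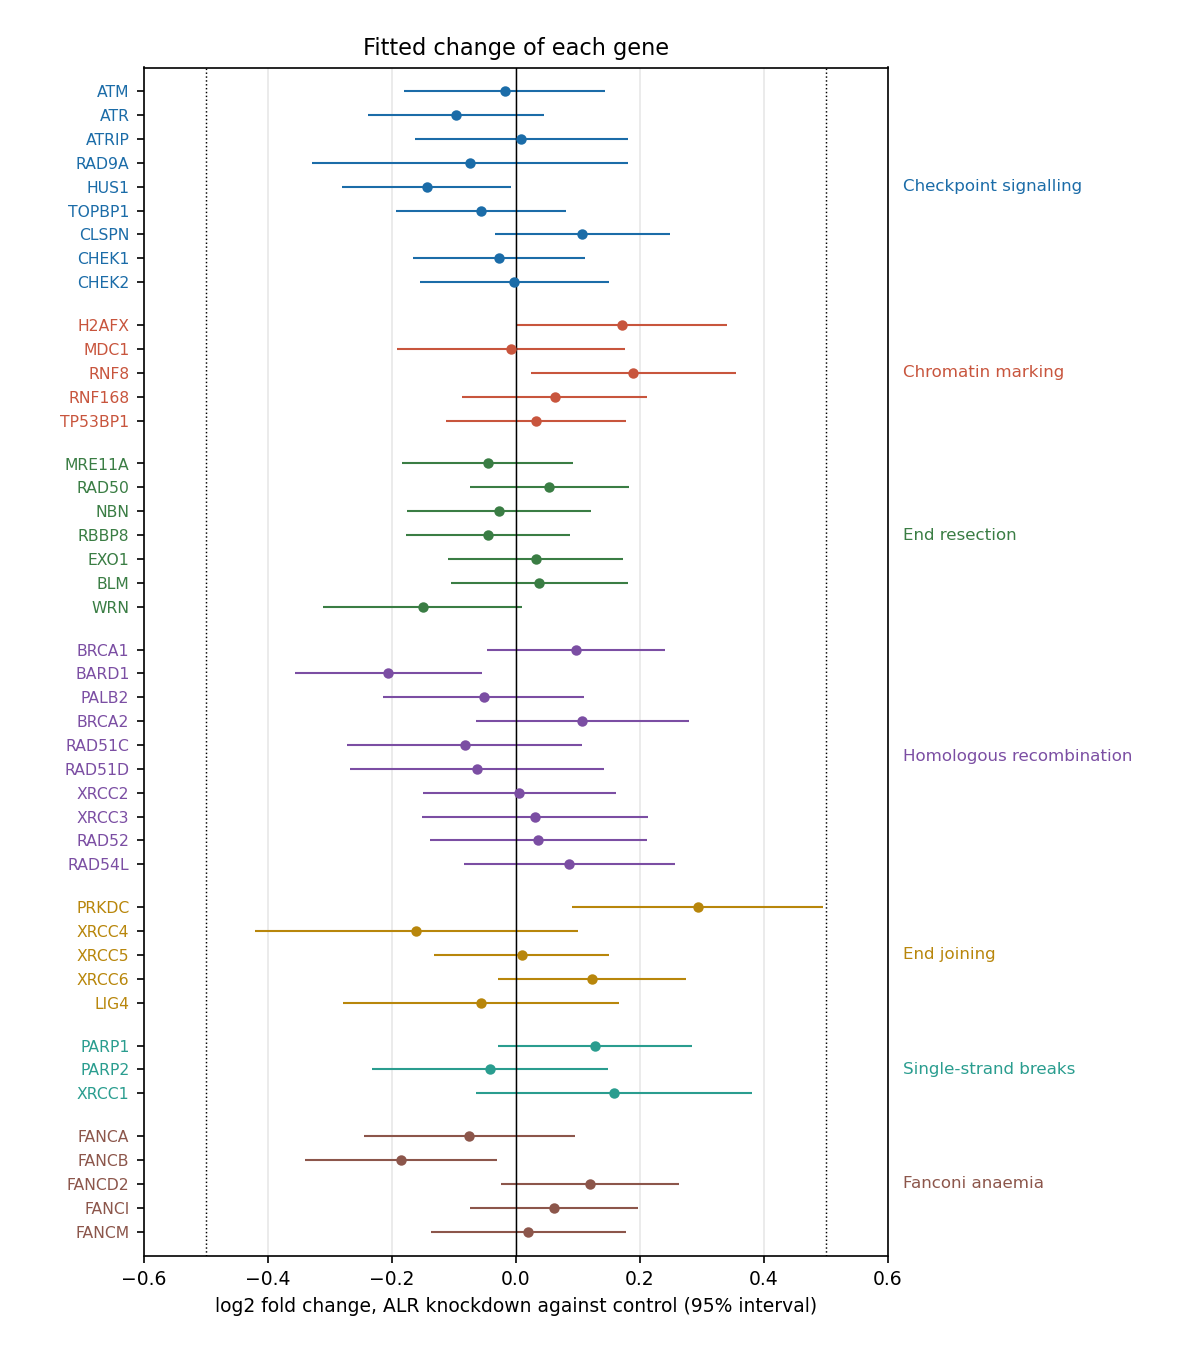
Fitted log2 fold change of each of the 44 genes, ALR knockdown against control (points), with its 95% interval (bars), grouped by role; dotted lines mark ±0.5. Every interval lies inside the dotted lines, and the points of PRKDC (0.29) and BARD1 (-0.21) are the farthest from 0.

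The lowest count of any of these genes in any library was 290 and the highest 39068, with total counts of 25087629 to 36576752 per library. Knockdown library a had counts in 29678 rows, more than the 25898 to 26788 of the other 5 libraries. Pluripotency marker rows summed to 5215 to 5938 TMM-scaled CPM (counts relative to library size) in knockdown and 5239 to 5383 in control libraries, but SOX2 was listed at 0 in all 6 libraries. Of the naive-state markers, KLF17 lay under 1 CPM in all 6 libraries, with 1 to 10 counts each. Since rows of genes these cells need are also at or near 0, that low row was not read as absence of the RNA. The 8 naive-state markers together summed to 72.4 to 80.6 CPM in knockdown and 72.7 to 78.1 in control libraries. Most of that sum came from TFCP2L1 (23.9 to 32.2 CPM over all 6 libraries), DPPA3 (18.1 to 21.9) and KLF4 (16.5 to 19.1). DPPA5 (0.81 to 1.23), DNMT3L (1.35 to 2.99) and SUSD2 (2.35 to 3.03) were also low, and KLF5 lay between. Whether the cells were in a naive-type state was not tested. All 8 trophoblast markers averaged under 1 CPM. Fibroblast marker rows summed to 98.8 to 111 CPM in knockdown and 101 to 115 in control libraries, with COL1A2 the most abundant, while COL3A1, DCN, LUM and POSTN averaged under 1 CPM. Germ layer markers summed to 17.4 to 18.5 CPM in knockdown and 14.8 to 16.6 in control libraries, which did not overlap. Most of that sum came from MIXL1 alone (12.5, 14.1 and 12.5 CPM in knockdown, 11.8, 12.1 and 9.94 in control libraries). T, EOMES, SOX17, GATA4 and SOX1 averaged under 1 CPM, and FOXA2 and PAX6 overlapped between groups. No gene of these marker lists passed edgeR's adjusted threshold. At an unadjusted p under 0.05, 3 of the 5 fibroblast markers tested were higher and 1 lower, and 2 of 7 pluripotency markers were higher. So were 1 of 5 germ layer markers, while 1 of 7 naive-state markers was lower. Of all genes tested, 6.68% were higher and 7.57% lower at that p. PDGFRB (0.41 to 1.73 CPM), POSTN (0.50 to 1.30) and EOMES (0.14 to 0.53), all higher, lay near the floor. TAGLN, the remaining higher fibroblast marker, did not. It had 13.6, 13.5 and 10.5 CPM with the ALR gapmer and 9.82, 9.11 and 10.2 with the control gapmer. The groups of TAGLN did not overlap, and its log2 fold change was 0.37 (edgeR adjusted p = 0.190). COL1A2, the lower fibroblast marker, overlapped between groups. The smallest p among the marker genes was that of POU5F1, the gene of the pluripotency factor OCT4, named after its value was seen. It had 120, 152 and 127 CPM with the ALR gapmer and 114, 87.8 and 97.4 with the control gapmer. Its log2 fold change was 0.42 (edgeR adjusted p = 0.0948). The part of the marker genes in the results was not tested.

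Levels per length set the genes far apart. In control libraries the genes ranged 66.8-fold, from 2.23 ± 0.269 CPM per kilobase of merged exons for RAD51D to 149 ± 4.62 for XRCC5, which encodes the Ku80 subunit (SD, n = 3). Only 5 genes reached 40 CPM per kilobase: XRCC5, its Ku70 partner XRCC6 (133 ± 3.41), the strand-break sensor PARP1 (84.7 ± 1.63), the DNA-PK catalytic subunit gene PRKDC (55.3 ± 5.12) and the histone gene H2AFX (46.6 ± 3.93). Another 18 lay under 10, including the kinases ATM (3.55 ± 0.265) and ATR (4.55 ± 0.0937) and the end-joining ligase LIG4 (2.88 ± 0.200). Merged exons pool all annotated transcripts of a gene (23972 bases in ATM), so these levels can understate the level per transcript. The order was almost the same in knockdown libraries, with a Spearman correlation of 0.994 across the 44 genes, which share libraries and lengths.

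**Figure D2:**
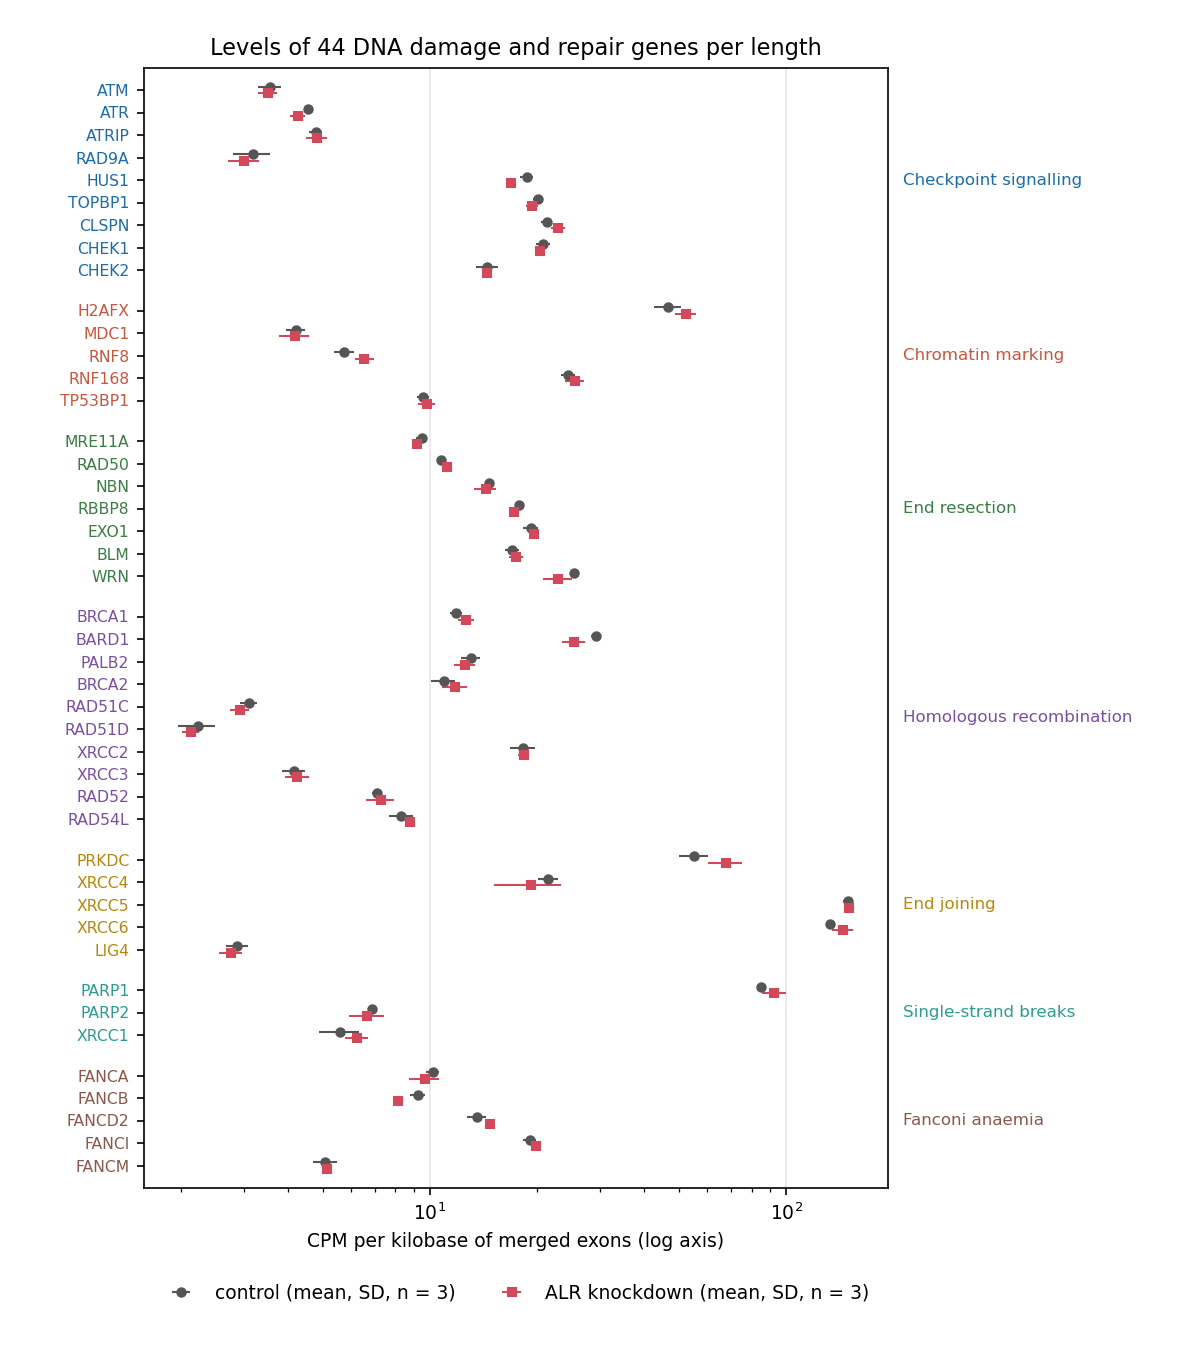
Mean level of each gene in CPM per kilobase of merged exons (log axis), with bars of SD over n = 3 libraries, for control (grey circles) and ALR knockdown (red squares). Ku subunits, PARP1, PRKDC and H2AFX stand at the high end, RAD51D and LIG4 at the low end, and the paired symbols lie close together.

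Promoters of the genes were examined because many repair genes are transcribed in S phase by E2F factors. RefSeq (GRCh38.p14) gave a window of 300 bases, 250 before and 50 after the start, for 38 of the 44 genes; HUS1, NBN, WRN, PRKDC, XRCC5 and FANCI were not among them. An E2F motif (TTTCCCGC or TTTGGCGC, either strand) was present in 4 of the 38 windows (10.5%), those of CLSPN, XRCC2, XRCC6 and FANCD2, against 2.27% of 35116 promoters. A CCAAT box (CCAAT, either strand) was in 52.6% against 34.6%, and the cell cycle homology region (TTTGAA or TTCGAA, either strand) in 13.2% against 16.4%. The 38 were 1 window per gene. The 35116 were all windows of 300 bases, not reduced to 1 per gene and not matched by gene type or level. Enrichment was therefore not tested. The 4 genes with the E2F letters had log2 fold changes of 0.005 to 0.12, and the 34 without them -0.21 to 0.19. Shown are 2 promoters with the E2F letters and those of RNF8 and BARD1, genes with a high and the lowest fitted value, from 120 bases before to 30 after the start, on the gene's strand; capitals mark E2F letters (GCGGGAAA, the reverse complement of the first motif) and CCAAT boxes (ATTGG on the reverse strand).
CLSPN, chr1:35769949-35770098, minus strand: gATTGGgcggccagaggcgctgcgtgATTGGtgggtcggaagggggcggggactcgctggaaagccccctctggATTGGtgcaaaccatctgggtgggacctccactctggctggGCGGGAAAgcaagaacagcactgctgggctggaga
FANCD2, chr3:10026317-10026466, plus strand: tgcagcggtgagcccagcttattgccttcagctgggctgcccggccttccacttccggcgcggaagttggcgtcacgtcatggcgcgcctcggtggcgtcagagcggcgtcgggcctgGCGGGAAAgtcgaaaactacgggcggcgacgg
RNF8, chr6:37353863-37354012, plus strand: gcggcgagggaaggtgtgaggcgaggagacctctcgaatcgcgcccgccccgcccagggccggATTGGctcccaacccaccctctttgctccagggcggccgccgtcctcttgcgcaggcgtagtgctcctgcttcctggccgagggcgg
BARD1, chr2:214809654-214809803, minus strand: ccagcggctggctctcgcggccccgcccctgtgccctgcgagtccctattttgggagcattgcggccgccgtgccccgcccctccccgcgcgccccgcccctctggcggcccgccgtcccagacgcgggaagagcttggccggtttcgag
In CLSPN and FANCD2 the E2F letters span the annotated start. CLSPN also holds 3 CCAAT boxes in this stretch and RNF8 has 1, while BARD1 has none of the motifs searched in its whole window. A match is a description of these letters and no evidence of binding.

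In checkpoint signalling (9 genes), 0 passed, and the median change was -0.03. Within the group the level per length was highest for CLSPN (21.3 ± 0.772 CPM per kilobase in control) and lowest for RAD9A (3.18 ± 0.385). HUS1, a subunit of the sliding clamp loaded at damaged DNA (ENSG00000136273.12, chr7:47963288-47979553, GRCh38), had 70.2, 68.1 and 70.0 CPM with the ALR gapmer and 73.8, 79.9 and 76.4 with the control gapmer. The groups did not overlap, with every knockdown library lower, but the log2 fold change of -0.14 ± 0.06 (SE) did not pass (edgeR adjusted p = 0.325). Claspin (CLSPN), the adaptor through which ATR activates CHEK1, had 124, 129.8 and 118 CPM with the ALR gapmer and 111, 119.6 and 114 with the control gapmer. Its knockdown c value was below control b, and the log2 fold change was 0.11 ± 0.06 (edgeR adjusted p = 0.486). ATR had 51.8, 51.6 and 56.1 CPM with the ALR gapmer and 56.9, 57.9 and 55.6 with the control gapmer, for a fitted log2 fold change of -0.10 ± 0.07 (edgeR adjusted p = 0.541). Only knockdown c reached the control range of ATR. The remaining 6 genes, ATM, ATRIP, RAD9A, the ATR activator TOPBP1, CHEK1 and CHEK2, had log2 fold changes of -0.07 to 0.01.

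Of the 5 genes that mark chromatin around a break, 0 passed, and 4 had a fitted value above 0 (median 0.06). H2AFX had the highest level per length and MDC1, the scaffold that binds phosphorylated H2AX, the lowest (4.20 ± 0.253 CPM per kilobase in control). RNF8, the first ubiquitin ligase recruited to MDC1 (ENSG00000112130.16, chr6:37353972-37394738, GRCh38), had 42.5, 46.0 and 40.8 CPM with the ALR gapmer and 35.7, 40.6 and 37.1 with the control gapmer. All 3 knockdown values were higher, the closest pair being knockdown c and control b, and the log2 fold change was 0.19 ± 0.08 (edgeR adjusted p = 0.287). An exon of RNF8 overlaps the small RNA pseudogene RN7SL273P. H2AFX, which encodes histone H2AX (ENSG00000188486.3, chr11:119093854-119095467, GRCh38), had 81.2, 91.1 and 81.4 CPM with the ALR gapmer and 82.0, 74.2 and 69.4 with the control gapmer. Control a overlapped the knockdown range, and the log2 fold change was 0.17 ± 0.08 (edgeR adjusted p = 0.348). RNF168, the ligase that extends the ubiquitin mark, had 137, 144 and 128 CPM with the ALR gapmer and 124, 136 and 132 with the control gapmer, overlapping groups with a fitted log2 fold change of 0.06 ± 0.07 (edgeR adjusted p = 0.730). MDC1 (-0.01) and TP53BP1 (0.03), whose product shields ends from resection, were close to 0.

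None of the 7 end resection genes passed, at an adjusted or an unadjusted p of 0.05, and their median change was -0.03. WRN, the helicase gene mutated in Werner syndrome, had the highest level per length (25.4 ± 0.149 CPM per kilobase in control) and the nuclease gene MRE11A the lowest (9.48 ± 0.331). WRN had 127, 118 and 142.01 CPM with the ALR gapmer and 142.5, 142.5 and 144 with the control gapmer, for a fitted log2 fold change of -0.15 ± 0.07 (edgeR adjusted p = 0.380). The control libraries were tightly grouped and knockdown c lay just below them, so the difference came from knockdown a and b. RAD50, the ATPase that tethers the ends, had 112, 109 and 107 CPM with the ALR gapmer and 106, 105 and 105 with the control gapmer. Here too the groups did not overlap, although the log2 fold change was only 0.05 ± 0.06 (edgeR adjusted p = 0.730). RBBP8, which encodes the resection factor CtIP, had 88.8, 89.1 and 85.8 CPM with the ALR gapmer and 89.8, 93.5 and 88.9 with the control gapmer, for a fitted log2 fold change of -0.05 ± 0.06 (edgeR adjusted p = 0.780). NBN, MRE11A, the exonuclease gene EXO1 and the Bloom helicase gene BLM lay between -0.05 and 0.04.

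In homologous recombination (10 genes), 0 passed and the median change was 0.02. BARD1, the obligate RING partner of BRCA1 (ENSG00000138376.10, chr2:214725646-214809711, GRCh38), had the highest level per length of the group (29.2 ± 0.947 CPM per kilobase in control) and the lowest fitted value of all 44 genes. It had 151, 145 and 166 CPM with the ALR gapmer and 173, 184 and 175 with the control gapmer. Every knockdown library was below every control, knockdown c by the least, and the log2 fold change was -0.21 ± 0.07 (95% interval -0.36 to -0.05; edgeR adjusted p = 0.209). BRCA1 itself had 117, 122 and 110.1 CPM with the ALR gapmer and 104, 112 and 110.2 with the control gapmer, overlapping groups with a fitted log2 fold change of 0.10 ± 0.07 (edgeR adjusted p = 0.545). BRCA2, a mediator of homologous recombination, had 145, 156 and 133 CPM with the ALR gapmer and 122, 139.9 and 141 with the control gapmer, for a fitted log2 fold change of 0.11 ± 0.08 (edgeR adjusted p = 0.579). Both BRCA genes were highest in knockdown b and lowest in control a. The other 7 genes, the bridging factor PALB2, RAD51C, RAD51D, XRCC2, XRCC3, RAD52 and the translocase RAD54L, had log2 fold changes of -0.08 to 0.09. RAD51D was the lowest of the group per length, and its exons overlap those of the read-through gene RAD51L3-RFFL, so its level is uncertain.

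End joining (5 genes) held both the highest fitted value and the widest interval of the 44 genes, and 0 genes passed. PRKDC (ENSG00000253729.7, chr8:47773108-47960183, GRCh38) had 1021, 1171 and 940.3 CPM with the ALR gapmer and 761, 892 and 904 with the control gapmer. The lowest knockdown value, c, was above the highest control, also c, and the means were 1044 ± 117 and 852 ± 79.0 CPM (SD, n = 3). The log2 fold change was 0.29 ± 0.09 (95% interval 0.09 to 0.50; edgeR adjusted p = 0.183), larger in size than that of 78.8% of all genes tested. PRKDC was called by DESeq2's Wald test, with no low-count filter (0.29; edgeR adjusted p = 0.00809) and without knockdown c (0.34; edgeR adjusted p = 0.0250). Over the 15 alternatives its adjusted p ran from 0.00809 to 0.421, with a value above 0 in each. XRCC4, the scaffold of LIG4, had 46.1, 44.4 and 64.3 CPM with the ALR gapmer and 61.0, 53.6 and 58.0 with the control gapmer. Knockdown c was the highest of all 6 libraries and knockdown a and b the lowest, so the log2 fold change of -0.16 ± 0.12 (edgeR adjusted p = 0.582) averaged unlike libraries. XRCC6 had 494, 495 and 438 CPM with the ALR gapmer and 426, 448 and 436 with the control gapmer, for a fitted log2 fold change of 0.12 ± 0.07 (edgeR adjusted p = 0.456). Its knockdown c value lay within the control range, and XRCC5 was at 0.01. LIG4, the lowest of the group per length, was at -0.06.

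Of the 3 genes of single-strand break repair, 0 passed. PARP1 had 670.0, 711 and 609 CPM with the ALR gapmer and 602, 621 and 599 with the control gapmer, for a fitted log2 fold change of 0.13 ± 0.07 (edgeR adjusted p = 0.455). Only control b reached above knockdown c. XRCC1, the scaffold that poly(ADP-ribose) recruits to nicks and the lowest of the group per length (5.61 ± 0.725 CPM per kilobase in control), had 20.4, 23.5 and 21.0 CPM with the ALR gapmer and 22.3, 17.8 and 18.1 with the control gapmer. Control a overlapped the knockdown range of XRCC1, and its log2 fold change was 0.16 ± 0.10 (edgeR adjusted p = 0.521). PARP2 had 26.6, 30.8 and 24.7 CPM with the ALR gapmer and 28.1, 28.99 and 27.7 with the control gapmer, for a fitted log2 fold change of -0.04 ± 0.09 (edgeR adjusted p = 0.871) that was 0.0051 without knockdown c.

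The 5 Fanconi anaemia genes act on DNA crosslinks; 0 passed, and the median was 0.02. FANCB, an X-linked subunit of the core ubiquitin ligase complex (ENSG00000181544.14, chrX:14835961-14873069, GRCh38), had 29.9, 28.3 and 29.6 CPM with the ALR gapmer and 31.5, 34.6 and 33.6 with the control gapmer. All knockdown values were lower, and the log2 fold change was -0.19 ± 0.07 (95% interval -0.34 to -0.03; edgeR adjusted p = 0.269). FANCD2, a substrate of that complex, had 123, 127 and 121 CPM with the ALR gapmer and 106, 119 and 116 with the control gapmer, all knockdown values higher, with a fitted log2 fold change of 0.12 ± 0.07 (edgeR adjusted p = 0.441). FANCI, its binding partner and the highest of the group per length (19.1 ± 0.817 CPM per kilobase in control), had 155, 157 and 152 CPM with the ALR gapmer and 141, 150.4 and 153 with the control gapmer. The groups of FANCI overlapped, with a fitted log2 fold change of 0.06 ± 0.06 (edgeR adjusted p = 0.705). FANCA was at -0.08 and FANCM, the helicase-like anchor and lowest of the group per length (5.08 ± 0.387), at 0.02.

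**Figure D3:**
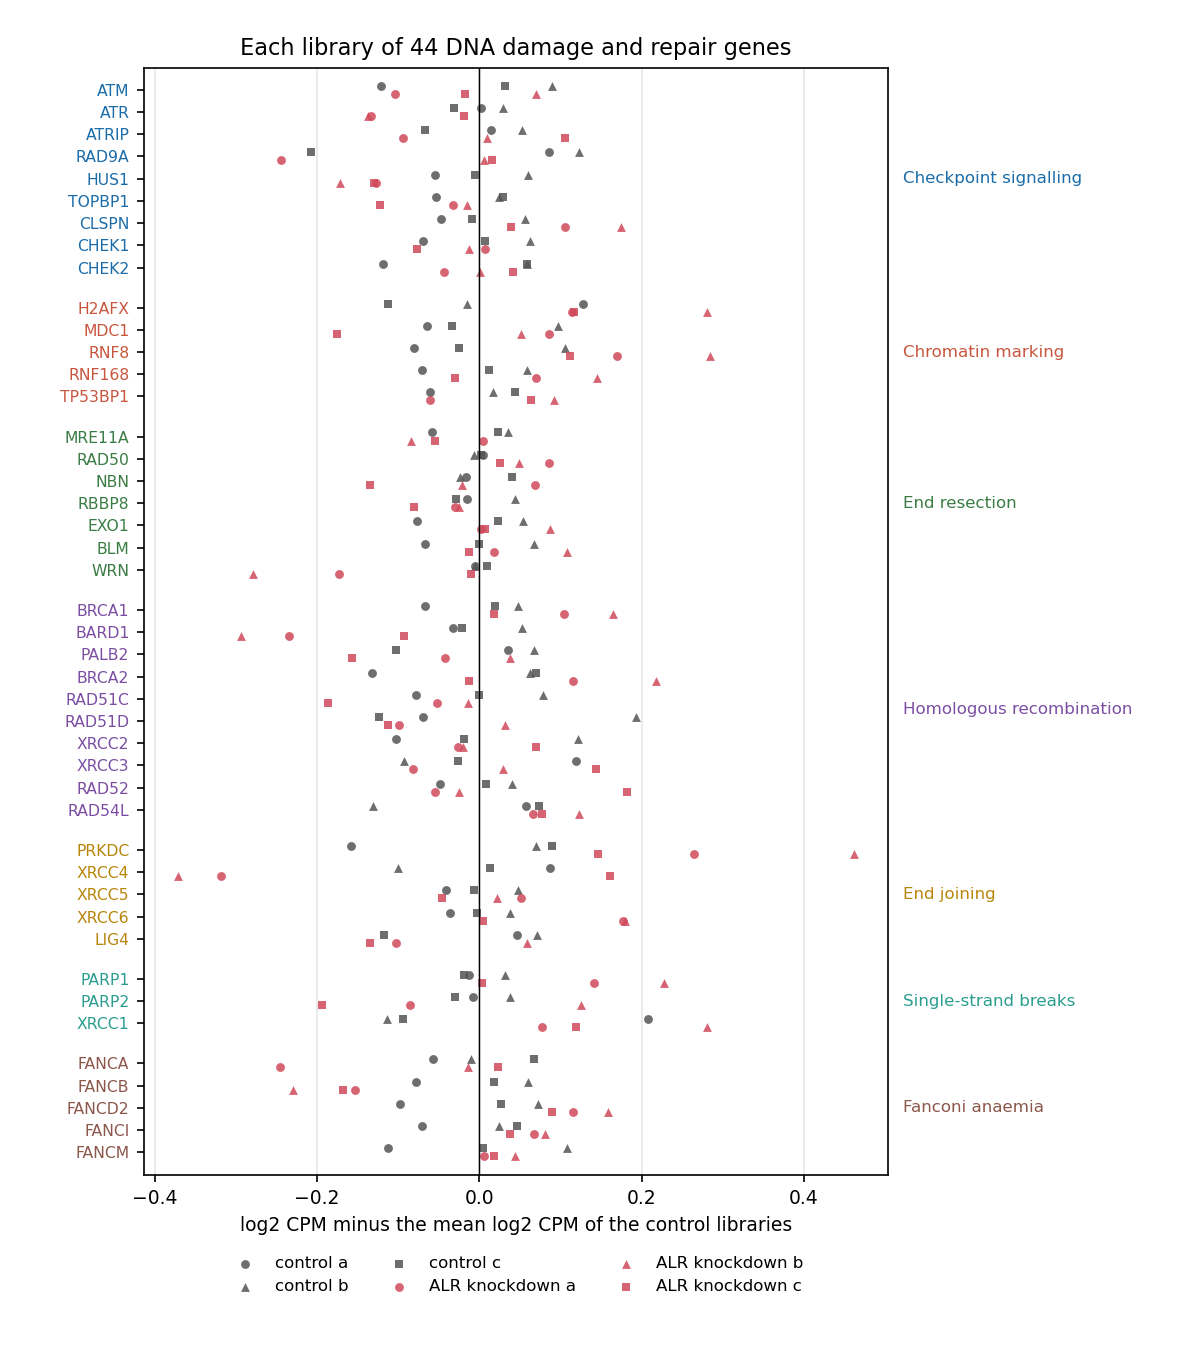
Log2 CPM of each gene in each of the 6 libraries, minus the mean of the control libraries, grouped by role (grey, control; red, ALR knockdown; circle a, triangle b, square c). Most points lie within ±0.2, and the widest spread within a group is that of XRCC4, where knockdown c sits apart from a and b.

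Among the 44 genes, the libraries with the letter b carried most of the highest values. Knockdown b was the highest library for 17 of the 44 genes and control b for another 17, whereas control a was the lowest for 15 and knockdown c for 10. The same counts were not made over all genes tested, so whether this order is particular to the 44 genes was not tested. The median deviation from the control mean was 0.04 in knockdown b and 0.05 in control b, against -0.05 in control a. In both groups the spread was small: the median SD was 6.05% of the mean in knockdown and 4.62% in control libraries, compared with 10.03% and 8.05% over all genes tested. The 44 genes had at least 290 counts in every library, whereas all genes tested include rows with far fewer. Spread was not compared with genes of like level. Knockdown c set several results. Without it, 4 of the 44 genes passed (PRKDC higher; BARD1, WRN and XRCC4 lower), 9.09% against 6.4% of all genes tested in that fit. Without knockdown a, 0 of the 44 passed.

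Several of these proteins work in fixed pairs, so the ratio of partner counts within a library, which no scaling can change, was compared for 12 pairs. The pairs were picked for known binding after the single-gene values had been seen. BRCA1 to BARD1 differed most. Its log2 ratio was -0.37, -0.25 and -0.60 with the ALR gapmer and -0.74, -0.71 and -0.67 with the control gapmer. The ratio was higher in each knockdown library than in each control, by 0.30 on average (exact permutation p = 0.10, two-sided, the smallest 3 against 3 can give; 0.24 adjusted over the 12 pairs). For XRCC5 to XRCC6 the log2 ratio was 0.77, 0.74 and 0.85 with the ALR gapmer and 0.89, 0.91 and 0.90 with the control gapmer, lower by a mean difference of -0.11 (exact permutation p = 0.10). RAD50 to MRE11A (0.10), ATR to ATRIP (-0.10) and FANCD2 to FANCI (0.06) also had no overlap between groups, while the other 7 pairs overlapped. That makes 5 of 12 pairs without overlap (41.7%), beside 24.5% of the 946 ratios that can be formed among the 44 genes. As the pairs were picked after the values were seen, the count is a description. At 3 against 3, none of these 12 tests could pass 0.05.

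**Figure D4:**
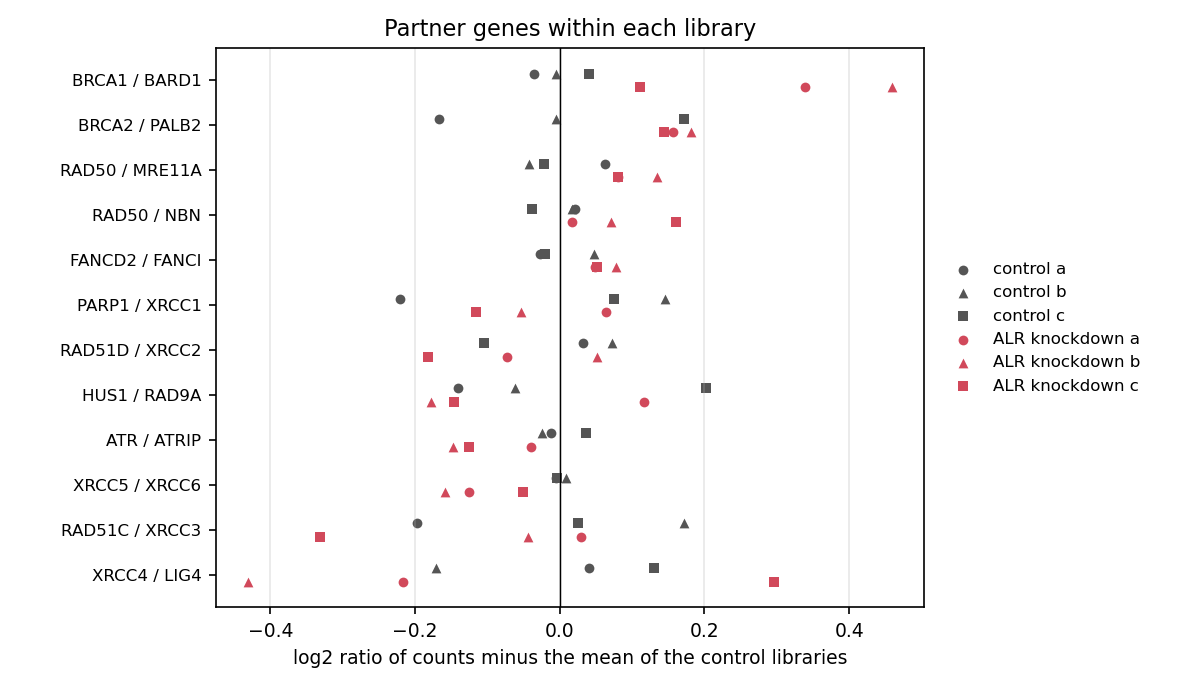
Log2 ratio of the counts of 2 partner genes in each library, minus the mean ratio of the control libraries (grey, control; red, ALR knockdown; circle a, triangle b, square c). BRCA1 / BARD1 has the largest shift, 0.30, with knockdown c the nearest to the controls, and the groups are apart in 5 of the 12 pairs, beside 24.5% of all ratios among the 44 genes.

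Another 56 genes of the same pathways were taken as a list, chosen by gene identity with earlier results of these data known. Of these, 51 could be tested and 0 passed, with a median of 0.001 on the log2 scale. At an unadjusted p under 0.05, 3 were higher and 2 lower, 9.80% of the 51 against 14.3% of all genes tested, and these are named after their values were seen. They were TIMELESS (0.19), LIG1 (0.18) and RPA1 (0.16), which act at the replication fork, and the deubiquitinase subunit gene BRE (-0.24) and the checkpoint kinase WEE1 (-0.15). The smallest edgeR adjusted p among them was 0.236. The 5 that could not be tested, BRCC3, BABAM1, GEN1, POLL and NHEJ1, had 0 to 4 counts in any library; 4 of them were listed at 0 in all 6. The replication nuclease FEN1, which dividing cells need, also had only 0 to 6 counts, so a row listed at 0 here was not read as absence of the RNA. The reason was not tested. Exons of 27 of the 44 genes overlap an exon of another annotated gene, 9 on the same strand and 22 on the opposite one, and with the strand setting not given, their levels are uncertain.

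Outputs of damage signalling, mostly genes that p53 activates, were also examined. The list was chosen with earlier results known and so is no independent evidence of its direction. Of 20 damage outputs, 19 were tested and 18 had a value below 0, where 45.6% of all genes tested did. Their median was -0.30 on the log2 scale against 0.02 over all genes. Of the 19, 4 were lower at an adjusted p under 0.05 by edgeR's test (CDKN1A, MDM2, TNFRSF10B and ZMAT3), where 0.649% of all genes were, and 0 were higher. Their summed level was 617 to 644 CPM in knockdown and 755 to 808 in control libraries, which did not overlap. S phase genes, whose expression follows the same cell cycle phase as many repair genes, had a median of 0.10 with 17 of 21 above 0, where 54.4% of all genes tested were, and 0 passed. They summed to 3364 to 3545 CPM in knockdown and 3234 to 3265 in control libraries, which did not overlap. At an edgeR unadjusted p under 0.05, 5 of the 21 were higher and 0 lower, 23.8% against 14.3% of all genes tested. G2 and M phase genes had a median of 0.06, with 18 of 22 above 0, 1 higher and 0 lower at that unadjusted p, and 0 called. They summed to 3076 to 3517 CPM in knockdown and 3053 to 3231 in control libraries, which overlapped. Whether these lists differ from the 44 genes was not tested, and the part of cell cycle phase in the values of the repair genes was not tested.

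**Figure D5:**
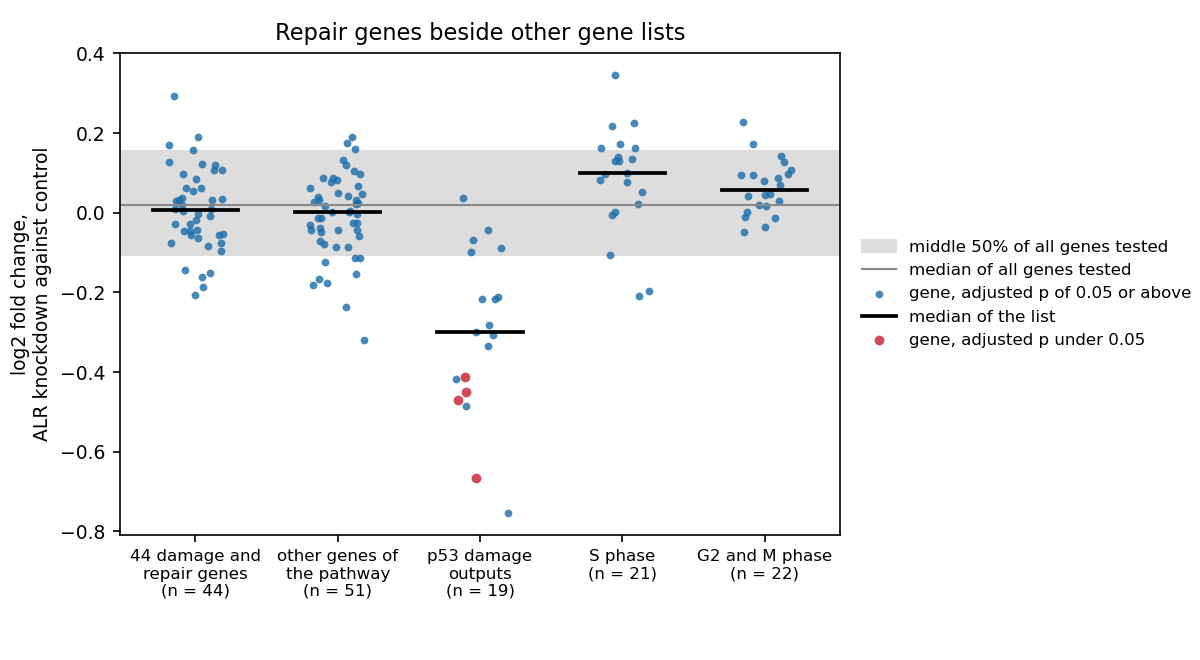
Fitted log2 fold change of each tested gene in 5 lists (points; red where the adjusted p was under 0.05), with the median of each list (black bar) and the median and middle 50% of all genes tested (grey line and band). The 44 repair genes and the other pathway genes centre on 0, while the damage outputs, mostly p53 targets, have a median of -0.30 and hold the 4 called genes.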

How the data were processed

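RNA-seq read counts of 6 libraries, 3 per group, were analysed. The authors deposited raw counts per gene symbol, 1 column per library, with no scaling apparent: values were whole numbers and totals differed. The submitters' processing notes name Trimmomatic 0.39, STAR 2.7.8a, featureCounts, Subread 2.14.2 and hg38; annotation, strand setting and handling of multi-mapping reads are not given in the sources used here. The members and lists were chosen with earlier results of these data known. In 28 rows the symbol had become a date; they stayed in library sizes and tests.

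Genes were filtered with filterByExpr, scaled by TMM and tested with edgeR 4.0.16 (R 4.3.3; glmQLFit, glmQLFTest) with the group as the only term. P-values were two-sided, Benjamini-Hochberg adjusted over 19721 genes, with a threshold of 0.05. CPM used TMM-scaled library sizes. The SE of a log2 fold change was not fitted directly but back-calculated from its size and the quasi-likelihood F statistic. Intervals of fold changes used that SE and the quasi-likelihood degrees of freedom. Gene lengths, Ensembl identifiers, coordinates and overlaps came from GENCODE release 29 (GRCh38). Ratios of partner genes were tested by exact permutation with SciPy 1.17.1. Promoter sequences came from RefSeq (GRCh38.p14).

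Named in full were genes at an unadjusted p under 0.05 and, in each of 7 role groups, the up to 3 with the smallest p (21 genes). Alternatives used DESeq2 1.42.0, limma 3.58.1, other scalings and filters, a replicate block, removal of the gene span trend (natural spline, 5 degrees of freedom, over the 81.5% of tested genes with a span) and each library left out. Libraries of a group differed by more than counting noise, so none was counted as the same library deposited again. This does not show that they came from separate cultures.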

Additional observations from a re-analysis of the deposited data

How the results depend on the processing

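Of 315 fold changes (21 genes under 15 alternatives), 308 kept their direction and stayed short of the threshold. In 6 the gene passed: PRKDC under DESeq2's Wald test (0.29), with no low-count filter (0.29) and without knockdown c (0.34), and BARD1 (-0.28), WRN (-0.25) and XRCC4 (-0.37) without knockdown c. PARP2 ran from -0.14 (without knockdown b) to 0.0051 (without knockdown c), where its sign changed. In 12 of the 15 alternatives, 0 of the 44 genes passed. The count of higher genes among the 44 was 1 under DESeq2's Wald test and 1 with no filter, and ran from 0 to 1 when a library was left out; that of lower genes ran from 0 to 3. The median log2 fold change of the 44 genes ran from -0.026 (without control a) to 0.034 (library size alone). For these, the cause was not tested.

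Over all genes, 155 passed; 536 did under DESeq2's Wald test, 1064 with no low-count filter, 235 with the span trend removed, and 26 to 1309 when a library was left out (102, 61 and 1309 without knockdown a, b and c; 26, 42 and 42 without control a, b and c). Libraries sharing a letter did not deviate together in every pair (r of 1.23e-05, 0.116 and -0.0251 in the order a, b, c). The value for the b libraries was above those of pairs with unlike letters, of which knockdown a and control c had the highest (0.0907). With 3 libraries a group, these values cannot show whether a letter stands for a shared batch or culture. Fitting the letter as a replicate block gave 393 genes and 0 of the 44. The intervals lay within ±0.5 for all 44 genes, and 38 of them contained 0. Every one of the 44 had at least 290 counts in each library.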
